A study of Mus musculus with 4 samples.

Results

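The genes described are Plau, Plaur, Plat, Serpine2, Serpinf1, Anxa2 and S100a10, 7 of the 20207 genes listed in the deposited tables. They encode activators and receptors of the plasmin system at the cell surface, and serpins, of which the product of Serpinf1 does not inhibit proteases. The genes were taken by symbol, and all 7 were found in every table. The set was selected on gene function, with fold changes between the groups of these same libraries already in view. RNA sequencing was done on adipocyte precursors, stromal cells that can become fat cells, sorted as Sca1+ CD45- CD31- from adipose tissue of C57BL/6 mice. CD45 and CD31 mark blood and endothelial cells. One group was 2 libraries labelled Per3 KO, from young mice lacking the clock gene Per3, and the other was 2 libraries from wild-type (WT) littermates. Both were collected at zeitgeber time 2, which is 2 h after lights on. The labels give neither the Per3 allele, the fat depot, the sex nor the number of animals per library, so a p-value reflects the spread between samples, and that spread can be technical.

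Plasminogen circulates as an inactive precursor and is cut to plasmin, a protease that dissolves fibrin and cleaves matrix proteins. The urokinase activator (Plau) works on its receptor (Plaur) at the cell surface, and the tissue activator (Plat) is known chiefly for fibrin-bound clot lysis. The complex of annexin A2 (Anxa2) and S100A10 binds plasminogen on the outer membrane, serpins such as protease nexin-1 (Serpine2) block the activators, and plasmin activity in adipose stroma is known to take part in matrix remodelling.

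Total reads in genes were between 27950825 and 64964443 per library, and the 7 genes took from 0.648% to 0.908% of them. Per3 had 193 and 768 reads in the libraries labelled Per3 KO, against 121 and 170 reads in WT libraries. Scaled, this was 4.66 and 10.5 CPM (read counts relative to the scaled library total) in KO-labelled libraries, against 3.16 and 7.31 CPM in WT libraries. The groups overlapped, with a log2 fold change of 0.54 ± 0.83 (SE), and the level did not separate the libraries by label. A count over the whole gene cannot test a partial deletion, and the libraries are called KO-labelled. The gate's marker Ly6a stood at 2565 and 1533 RPKM (reads scaled by transcript length and library size) in KO-labelled libraries, against 1770 and 6980 RPKM in WT libraries. Ptprc, which encodes CD45, had at most 50 reads, and Pecam1, which encodes CD31, at most 378. WT 2 stood apart. Its log2(CPM + 1) correlated across 12494 genes with the other libraries at r = 0.866 to 0.902, while the other 3 correlated with each other at r = 0.930 to 0.940. Fold changes of the 7 genes, and those of other genes where they rest on it, are therefore also given without WT 2.

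Serpinf1, Anxa2 and S100a10 were among the 118 most abundant genes of every library. Plat ranked between 104 and 630, Plaur between 390 and 3392, Serpine2 between 1472 and 3311, and Plau between 1225 and 3435. By mean RPKM within the KO-labelled group the order was Anxa2 (1196), Serpinf1 (932), S100a10 (728), Plat (327), Plaur (107), Plau (24.0) and Serpine2 (16.2). In the WT group it was S100a10 (1296), Serpinf1 (892), Anxa2 (815), Plat (208), Plaur (65.3), Serpine2 (16.6) and Plau (7.33). Neighbours in these orders among the 3 most abundant genes overlapped in their values, as did Plau and Serpine2 in KO-labelled libraries. In WT libraries the range of Plaur, from 4.70 to 126 RPKM, overlapped those of Plat, Serpine2 and Plau.

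**Figure D1:**
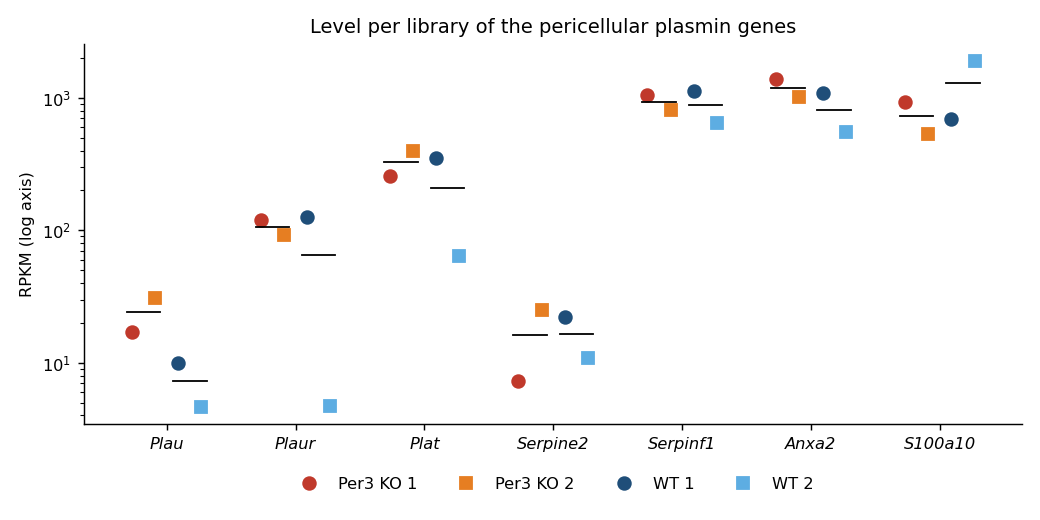
RPKM of each gene on a log axis in the 2 KO-labelled libraries (left, red and orange) and the 2 WT libraries (right, dark and light blue), with bars at the group means. Plau is the gene whose KO-labelled values, 17.02 and 30.89 RPKM, both lie above both WT values, 10.03 and 4.62 RPKM.

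Plau, the urokinase-type activator (mm9 chromosome 14, 21655929 to 21662610), was the gene that separated the groups. It had 2873 and 8695 reads in KO-labelled libraries, against 1566 and 610 reads in WT libraries. Per length this was 17.02 and 30.89 RPKM in KO-labelled libraries, against 10.03 and 4.62 RPKM in WT libraries. The lower KO-labelled library was above the higher WT library, and within each group the libraries differed by 1.72-fold (KO-labelled) and 1.56-fold (WT) in CPM. The scaled level was 94.3 ± 35.3 CPM in KO-labelled libraries and 33.5 ± 10.3 CPM in WT libraries (SD, n = 2 each), a log2 fold change of 1.49 with a standard error of 0.54. It stayed positive with each library left out, between 1.05 and 1.85, and was 1.21 without WT 2. As both KO-labelled values lay above both WT values, leaving out a library could hardly turn this sign.

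Plat, the tissue-type activator (chromosome 8, 23868216 to 23893320), was more abundant per length than Plau in every library. It stood at 259 and 396 RPKM in KO-labelled libraries, against 352 and 63.8 RPKM in WT libraries. The groups overlapped, and WT 2 was the low library. The log2 fold change of 0.53 ± 0.81 (SE) in CPM turned to -0.14 without WT 2.

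Plaur, the urokinase receptor (chromosome 7, 25247519 to 25260892), varied most of the 7 genes between libraries. It had 12360 and 15840 reads in KO-labelled libraries, against 11940 and 377 reads in WT libraries. Its levels were 121 and 92.7 RPKM in KO-labelled libraries, against 126 and 4.70 RPKM in WT libraries. The first 3 values lie close together, and WT 2 was 19.2-fold below WT 1 in CPM. The log2 fold change was 0.65 ± 1.11 (SE), and without WT 2 it was -0.27 ± 0.47 (SE). On log2(RPKM + 0.5), which averages the logarithms, it was 2.05, where the median of all genes was 0.27.

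Anxa2 (chromosome 9, 69301490 to 69339592) encodes the calcium-dependent membrane-binding subunit of the plasminogen-binding complex. It stood at 1382 and 1009 RPKM in KO-labelled libraries, against 1081 and 549 RPKM in WT libraries. The groups overlapped, and the log2 fold change was 0.34 ± 0.70 (SE), or 0.12 without WT 2. S100a10 (chromosome 3, 93359039 to 93368567) encodes its partner, an S100 protein that does not bind calcium and carries the plasminogen-binding tail. It stood at 924 and 531 RPKM in KO-labelled libraries, against 699 and 1892 RPKM in WT libraries. WT 2 was here the high library, opposite to Plau, Plaur, Plat and Anxa2, which were all lowest there. The log2 fold change of S100a10 was -1.22 ± 0.84 (SE) with all libraries and 0.03 without WT 2.

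The upstream sequences of Plaur and Anxa2 are shown because both hold a match to the AP-1 motif, the binding site of Fos and Jun proteins, which is known to drive the urokinase receptor gene in human cells. They are the 250 bases before the RefSeq start in build GRCm38.p6, 5′ to 3′ on the plus strand, at chr7:24462233-24462482 for Plaur and chr9:69453433-69453682 for Anxa2. Capitals mark matches on either strand to AP-1 (TGANTCA), the GC box (GGGCGG), the E-box of CLOCK and BMAL1 (CACGTG), the D-box of the PAR bZIP factors (TTATGNAA), the cyclic AMP element (TGACGTCA) and TATAAA.
Plaur: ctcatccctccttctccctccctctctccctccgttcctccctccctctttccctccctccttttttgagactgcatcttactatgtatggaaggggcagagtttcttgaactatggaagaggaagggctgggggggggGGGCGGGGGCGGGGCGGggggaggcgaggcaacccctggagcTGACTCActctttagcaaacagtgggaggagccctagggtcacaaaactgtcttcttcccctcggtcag
Anxa2: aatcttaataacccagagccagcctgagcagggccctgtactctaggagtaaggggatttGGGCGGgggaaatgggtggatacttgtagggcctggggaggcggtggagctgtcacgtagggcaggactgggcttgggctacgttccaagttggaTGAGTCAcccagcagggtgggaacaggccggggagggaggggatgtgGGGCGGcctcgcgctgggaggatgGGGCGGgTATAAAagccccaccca

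The AP-1 match begins 69 bases before the start in Plaur and 95 bases before it in Anxa2. Each of the 2 promoters also holds 3 GC boxes, of which neighbouring ones can share bases, and Anxa2 holds TATAAA 17 bases before the start. Of 32851 mouse promoter windows of the same length, 6.75% held the AP-1 motif, 32.7% the GC box, 12.4% TATAAA, 6.02% the E-box, 3.07% the D-box and 1.55% the cyclic AMP element. The Serpine2 window held 6 GC boxes, that of Serpinf1 none of these motifs, and none of the 4 windows held the letters of the E-box, the D-box or the cyclic AMP element. Sequences of 4 of the 7 genes were matched, and Plau, Plat and S100a10 are named only.

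Serpine2 (chromosome 1, 79790899 to 79855240) encodes protease nexin-1, which inhibits urokinase, tissue activator, plasmin and thrombin. It stood at 7.24 and 25.2 RPKM in KO-labelled libraries, against 22.3 and 10.9 RPKM in WT libraries. Per3 KO 1 was the lowest and Per3 KO 2 the highest library, so the spread within the KO-labelled group, 3.30-fold in CPM, exceeded that within WT, 1.47-fold. The log2 fold change of -0.27 ± 0.65 (SE) turned positive without Per3 KO 1 (0.34) and without WT 1 (0.04). It was -1.37 without Per3 KO 2 and -0.51 without WT 2. Serpinf1 (chromosome 11, 75223531 to 75236125) encodes pigment epithelium-derived factor, an anti-angiogenic serpin that does not inhibit proteases and is abundant in adipose tissue. Its levels were 1047 and 816 RPKM in KO-labelled libraries, against 1135 and 648 RPKM in WT libraries. It was the least variable of the 7 genes, with 1.47-fold between its highest and lowest CPM. Its log2 fold change was -0.16 ± 0.69 (SE), or -0.31 without WT 2. On log2(RPKM + 0.5), with all 4 libraries, the sign was opposite, at 0.11.

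The groups were compared with edgeR's quasi-likelihood test over all genes. With Benjamini-Hochberg adjustment it called 0 of 12494 genes (0%) at an adjusted p under 0.05, and 0 of the 7. An unadjusted p under 0.05 was reached by 257 genes (2.06%), among them 1 of the 7, Plau. DESeq2 called 19 genes (0.134% of 14174), and limma on log2(RPKM + 0.5) called 1. None of the 7 passed in any of 13 alternatives, where the adjusted p of Plau ranged from 0.145 to 1. The genes were chosen with earlier results of these libraries in view, Plau being already named for its fold change, so these values describe the genes and support nothing further. Of the 7, 4 had a positive log2 fold change (median 0.34, or -0.14 without WT 2), beside 6316 of all 12494 genes tested (median 0.01). The groups did not overlap for 1 of the 7, KO-labelled above WT, a direction found in 14.6% of all genes tested. In either direction 26.0% of all genes did not overlap, so the share among the 7 was not above the background.

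**Figure D2:**
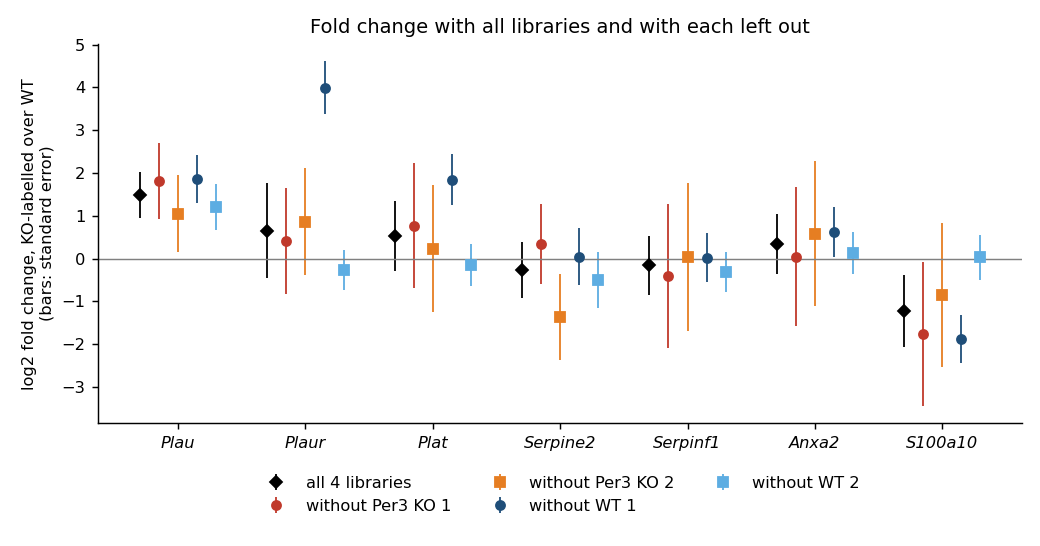
Log2 fold change of KO-labelled over WT libraries from edgeR, with bars for the standard error, for all 4 libraries (black) and with each library left out (colours). Plau lies above 0 throughout, from 1.05 to 1.85, a sign that its groups without overlap all but fix in advance. Plaur, Plat and S100a10 lie between -0.27 and 0.03 without WT 2.

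Markers of other cells were read beside Plau, with non-overlap judged in CPM. Of 8 mural markers, all tested, 4 had both KO-labelled values above both WT values, and 0 had the opposite order, beside 14.6% and 11.5% of all genes tested. Their summed level was 60.7 and 33.3 CPM in KO-labelled libraries, against 29.9 and 46.9 CPM in WT libraries, with Rgs5 and Cnn1 at 0 reads in WT 2. Of 6 epithelial markers tested, 2 were above and 1 below WT without overlap. All 8 listed, tested or not, summed to 2.39 and 7.38 CPM in KO-labelled libraries, against 5.74 and 1.89 CPM in WT libraries. Cdh1 and Cldn4 were at 0 reads in both WT libraries. Of 8 skeletal muscle markers tested, 0 were above and 4 below WT without overlap, at a summed 26.92 and 27.03 CPM in KO-labelled libraries, against 61.6 and 98.7 CPM in WT libraries. Myh4 was at 0 in Per3 KO 1. Of 7 leukocyte markers tested, 2 were above and 2 below WT without overlap. The leukocyte list summed to 39.2 and 30.1 CPM in KO-labelled libraries, against 17.2 and 51.3 CPM in WT libraries. Neither the 6 endothelial markers tested nor the 1 mesothelial marker separated the groups. Of 9 precursor and fibroblast markers tested, 0 were above and 2 below WT. The part of these markers in the level of Plau was not tested. In sorted bulk RNA a different share of cells and a different amount of RNA per cell cannot be told apart.

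The substrate of the system had few reads. Plg, which encodes plasminogen and is expressed chiefly in liver, had 0 and 354 reads in KO-labelled libraries, against 1 and 0 reads in WT libraries. A count of 0 allows up to 3 reads, or 0.0724 CPM in Per3 KO 1 and 0.129 CPM in WT 2. In the same library as the 354 Plg reads, 11 of 13 genes for liver-made plasma proteins in the lists had their highest level. The 13 include Plg itself and were picked after their values were seen. Vtn and Serping1, also genes of plasma proteins in the lists, were left out of the 13 and were highest in WT 1. Their levels were 190 and 4211 CPM there, against 171 and 4021 CPM in Per3 KO 2. No share over all genes was set beside the count of 11. The summed level of the 13, Plg included, was 0.884 and 39.8 RPKM in KO-labelled libraries, against 8.08 and 0.314 RPKM in WT libraries. Its relation to the Plg reads was not tested.

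The plasminogen receptor gene Plgrkt, listed under its older symbol 5033414D02Rik (a synonym in RefSeq), stood at 33.9 and 25.2 RPKM in KO-labelled libraries, against 21.2 and 54.9 RPKM in WT libraries. Eno1, whose product also binds plasminogen at the cell surface, was at 7.07 and 5.42 RPKM in KO-labelled libraries, against 4.96 and 0.176 RPKM in WT libraries, and reads of its near-identical copies make that level uncertain. The log2 fold change in CPM was -0.76 for Plgrkt and 1.23 for Eno1, and without WT 2 it was 0.45 and 0.30. Serpinf2, the plasmin inhibitor of plasma, reached at most 0.844 RPKM. Lrp1, which clears activator-inhibitor complexes, was at 15.6 and 22.0 RPKM in KO-labelled libraries, against 18.1 and 12.6 RPKM in WT libraries.

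Of 40 receptors and regulators in the chosen list, 39 were matched by symbol, 32 were tested and 0 passed. Positive log2 fold changes were found in 21 of the 32 (median 0.18), beside 50.6% of all genes tested. In CPM 6 were above and 2 below WT without overlap, shares near the 14.6% and 11.5% of all genes, so these counts are not a result about the list. Among the 6 were the integrin subunits Itgb1 and Itga5, which pair as a fibronectin receptor that works with the urokinase receptor. Itgb1 stood at 39.7 and 43.8 RPKM in KO-labelled libraries, against 36.7 and 21.5 RPKM in WT libraries. The log2 fold changes of Itgb1 and Itga5 were 0.29 and 0.45, or 0.15 and 0.19 without WT 2. The other integrin genes tested, Itgav, Itgb3 and Itgb5, overlapped between groups. The hyaluronan receptor Cd44 had a log2 fold change of 0.58 ± 0.60 (SE), or 0.19 without WT 2, and the protease inhibitor Tfpi2 0.76 ± 0.58 (SE), or 0.28. Ahnak, a scaffold that binds the annexin A2 and S100A10 complex, was at 332 and 295 CPM in KO-labelled libraries, against 652 and 451 CPM in WT libraries, with a log2 fold change of -0.81 ± 0.58 (SE). In RPKM its groups overlapped, at 10.34 and 9.70 in KO-labelled libraries, against 20.3 and 10.08 in WT libraries. Vitronectin, Vtn, a matrix ligand of the urokinase receptor, was at 37.5 and 58.2 RPKM in KO-labelled libraries, against 61.5 and 11.3 RPKM in WT libraries. Its log2 fold change of 0.26 turned to -0.40 without WT 2. Serping1, the C1 inhibitor, was the most abundant of the list and had a log2 fold change of 0.03 ± 0.72 (SE), or -0.20 without WT 2. Tfpi, the tissue factor pathway inhibitor, had 0.58 ± 0.58 (SE), or 0.33 without WT 2.

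Of 28 substrates and proteases downstream of plasmin, 24 were tested and 0 passed, with 14 positive log2 fold changes and a median of 0.04. In CPM 1 was above and 3 below WT without overlap, beside 14.6% and 11.5% of all genes tested. These counts are not a result about the list. Igfbp3, which binds insulin-like growth factors and can be cleaved by plasmin, was lower without overlap, at 11.1 and 12.5 RPKM in KO-labelled libraries, against 17.9 and 16.4 RPKM in WT libraries. The growth factor Vegfa was likewise apart, with a log2 fold change of -0.55 ± 0.50 (SE), or -0.26 without WT 2. Timp1 (-1.20 ± 0.70, SE) and the membrane protease Mmp14 (-0.97 ± 0.70, SE) overlapped between groups and were highest in WT 2. Without it their values were -0.11 and 0.04. Fibronectin, Fn1, the most abundant of this list, had a log2 fold change of -0.01 ± 0.75 (SE). Of 21 other serpins, 15 were tested, 0 passed and 7 were positive (median -0.01). In CPM 3 were above and 1 below WT without overlap, beside the same shares of all genes, again not a result about the list. Serpinc1, Serpind1 and Serpini1 were above and Serpina3g below, at means of 0.89, 0.10, 0.16 and 0.91 RPKM. The collagen chaperone Serpinh1 was the most abundant of them, with a mean of 671 RPKM. Its log2 fold change was -0.01 ± 0.78 (SE), or -0.54 without WT 2. The next named were Serpinb1a (0.60, or -0.05 without WT 2), Serpina3c (0.42, or -0.10), Serpina3n (-0.38, or -0.49) and the cytosolic inhibitor Serpinb6a (-0.01, or -0.02), all overlapping between groups.

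Anxa2 and S100a10 were then set beside their families. A positive log2 fold change was found in 7 of 8 other annexins tested (median 0.34), and a negative one in 7 of 9 other S100 genes (median -1.14), with 0 passing in either family. Without WT 2 the medians were -0.09 and 0.20. S100pbp, which was in the list but encodes a binding partner and not an S100 protein, is left out of this count. Among genes with a mean of at least 5 RPKM, WT 2 was the lowest library for 6 of 6 other annexins, beside 42.2% of 4055 genes, and the highest for 6 of 7 other S100 genes, beside 37.3%. The 6 annexins were in WT 2 at 0.380 to 0.777 times the median of the other 3 libraries, and the 7 S100 genes at 1.04 to 5.03 times. Anxa1, a phospholipid-binding annexin known for limiting inflammation, was at 1138 and 1179 RPKM in KO-labelled libraries, against 1215 and 311 RPKM in WT libraries. S100a11, another S100 protein that binds an annexin, was at 2342 and 1326 RPKM in KO-labelled libraries, against 1424 and 4666 RPKM in WT libraries. The log2 fold changes of the other named members were from 0.33 to 0.48 in Anxa4, Anxa5 and Anxa6, and from -1.38 to -1.14 in S100a13, S100a1, S100a4 and S100a6. Without WT 2 they lay between -0.16 and 0.10 in the first 3 genes and between -0.19 and 0.27 in the other 4.

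**Figure D3:**
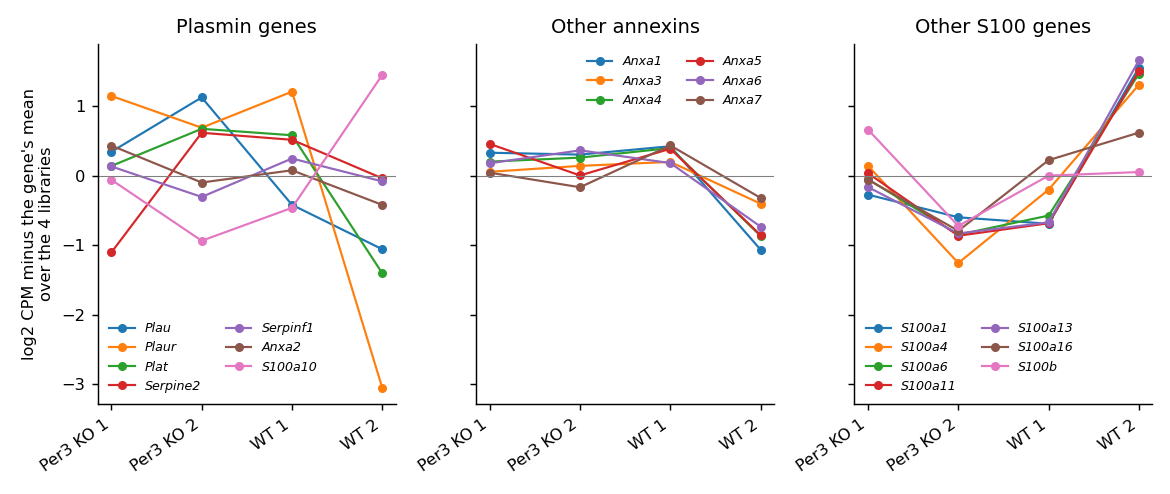
Log2 CPM of each gene minus its mean over the 4 libraries. Panels show the 7 genes described (left), 6 other annexins (middle) and 7 other S100 genes (right). Lines join a gene's values in Per3 KO 1, Per3 KO 2, WT 1 and WT 2. In WT 2 Plaur lies at -3.05 and S100a10 at 1.45, and the 6 annexins lie below 0 there.

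Transcript length was read beside this pattern. Genes were split by length into 3 bins of equal size. In the bin of shortest genes with a mean of at least 5 RPKM (1349 genes, length implied by reads over RPKM), the median centred log2 CPM was 0.09 and -0.48 in KO-labelled libraries, against -0.26 and 0.69 in WT 1 and WT 2. In the middle bin it was 0.17 and 0.08 in KO-labelled libraries, against 0.24 and -0.46 in WT libraries. In the bin of longest genes it was -0.03 and 0.16 in KO-labelled libraries, against 0.09 and -0.18 in WT libraries. Over the 3 bins, the medians of WT 2 were highest for the shortest genes and lowest in the middle bin. S100a10 had 0.330 of the length of the median gene and values of -0.06 and -0.93 in KO-labelled libraries, against -0.46 and 1.45 in WT libraries. S100a6 and S100a11, at 0.365 and 0.256 of the median length, had 1.47 and 1.51 in WT 2. Plaur, Anxa1 and Anxa2, in the same bin but longer, at 0.708, 0.708 and 0.697, had -3.05, -1.06 and -0.42 there. The part of length in the values of S100a10 was not tested.

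Ratios of RPKM within a library compare paired genes without scaling between libraries. The ratio of Plau to its inhibitor Serpine2 was 2.35 and 1.23 in KO-labelled libraries, against 0.450 and 0.425 in WT libraries. Both KO-labelled ratios were above 1 and both WT ratios below it, a log2 difference of 1.96, which was 1.91 without WT 2 and 1.49 to 2.43 over the libraries left out. The exact two-sided permutation p was 0.333, the smallest that 2 libraries against 2 allow. This was the one pair of the 4 compared whose groups did not overlap, and it shares its Plau values with the contrast by which Plau was chosen. Without overlap, the sign of its difference could not turn with a library left out. No share over other gene pairs was set beside this count, which is not a result about the pair. Among single genes tested, 26.0% did not overlap in CPM in either direction. The ratio of Plau to Plat was 0.0657 and 0.0780 in KO-labelled libraries, against 0.0285 and 0.0725 in WT libraries. The ratio of Plau to Plaur was 0.141 and 0.333 in KO-labelled libraries, against 0.0797 and 0.983 in WT libraries.

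Anxa2 and S100a10 transcripts stood at a ratio of 1.496 and 1.900 in KO-labelled libraries, against 1.55 and 0.290 in WT libraries. The first 3 libraries were thus within 1.496 to 1.900, and WT 2 alone had more S100a10 than Anxa2 per length. The exact two-sided permutation p was 0.667 for this pair and for Plau to Plat, and 1 for Plau to Plaur.

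**Figure D4:**
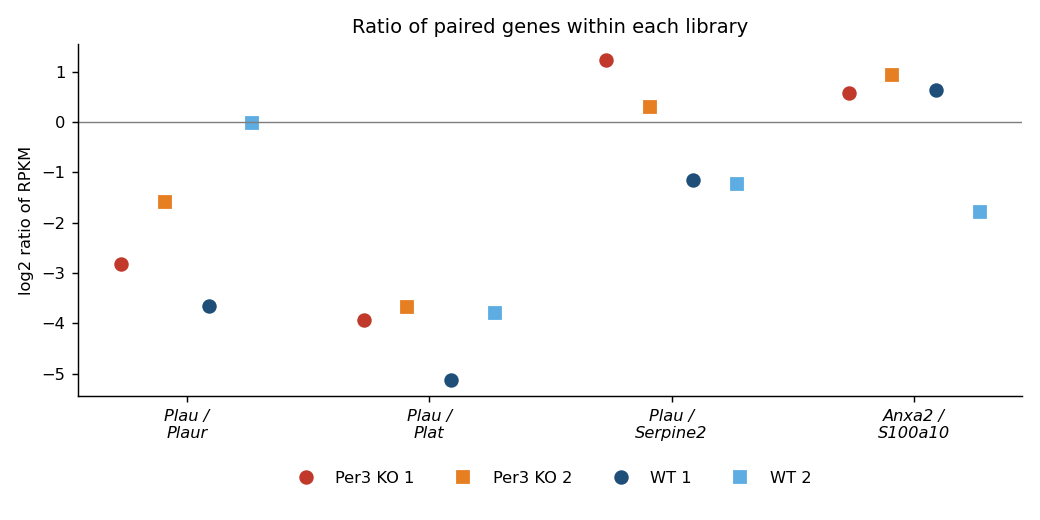
Log2 ratio of RPKM of 4 pairs of genes within each library, KO-labelled libraries in red and orange and WT libraries in dark and light blue, where 0 means equal levels per length. For Plau over Serpine2 the KO-labelled points, 1.23 and 0.29, lie above the WT points, -1.15 and -1.24.

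Likeness of profiles was measured as the Euclidean distance between centred log2(CPM + 1) values over the 4 libraries. Among the 7 genes Serpinf1 and Anxa2 were nearest (0.53), and Plaur and S100a10 were farthest apart (5.14). Plau was nearest to Plat (1.16) and lay 2.69 from its receptor gene Plaur. Among 4055 genes with a mean of at least 5 RPKM, those nearest to Plau were Ddx47, 3930401K13Rik and Wars, at distances from 0.30 to 0.38. Plaur was nearest to Nans, Haus8 and Stk11 (0.06 to 0.47), Plat to Stom, Rnf4 and Sp100 (0.06 to 0.12) and Serpine2 to 4930453N24Rik, Aup1 and Gcsh (0.22 to 0.25). Serpinf1 was nearest to Fbxw11, 2810008M24Rik and Golga7 (0.04 to 0.08), Anxa2 to Dhrs1, Taf1d and Atp6v1d (0.09 to 0.11), and S100a10 to Rps23, Gm6199 and Rpl22l1 (0.04 to 0.06). With 4 libraries many genes share a profile, so these names describe these libraries and nothing more.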

How the data were processed

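The deposited tables give, per the file headers, an estimated count of reads per gene, not normalised by the authors, and RPKM, which the authors scaled by transcript length and library size. Not used were a score (Z) of RPKM within a library and an RMS-scaled ratio made from RPKM, which the authors deposited beside them, per the file headers. Cells were lysed at once and cDNA was primed with oligo-dT, per the labels' protocols. The submitters' processing notes name mm9, STAR 2.4.0, Cufflinks and Cuffdiff 2.2.1. The roles of these tools, the use of strand and the handling of multi-mapping reads were not given in the sources used here. Near-identical copies are therefore uncertain. Relative to WT 1, the RPKM denominator of WT 2 was 0.846 where its gene total was 0.753.

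Counts were rounded, filtered with filterByExpr (12494 genes), scaled by TMM (factors 1.04 and 1.12 in Per3 KO 1 and 2, 1.03 and 0.832 in WT 1 and 2) and fitted with edgeR 4.0.16 in R 4.3.3, genotype being the only term. DESeq2 1.42.0, limma 3.58.1 on log2(RPKM + 0.5), other pseudocounts and filters, a replicate block and leaving out each library were alternatives. The floor is 3 reads per library and covers counting error only.

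Members and lists were chosen with earlier results of these data known. Named genes were the 7 members, fixed regulators, and per list up to 4 genes of smallest p with a mean of at least 5 RPKM and the most abundant one. One regulator and the ratios that involve it are not reported here.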

Additional observations from a re-analysis of the deposited data

How the results depend on the processing

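Plau and Anxa2 kept the sign of their log2 fold change under all 13 alternatives tried. For Plau, whose groups did not overlap, the sign with a library left out was all but fixed beforehand. Signs turned without WT 2 for Plaur, Plat and S100a10, and without other libraries for Serpine2 and Serpinf1. Leaving out each library gave log2 fold changes of 1.05 to 1.85 for Plau, -0.27 to 3.996 for Plaur, -0.14 to 1.84 for Plat, -1.37 to 0.34 for Serpine2, -0.41 to 0.0389 for Serpinf1, 0.04 to 0.62 for Anxa2 and -1.88 to 0.0334 for S100a10. Serpinf1 was also positive with limma, at 0.11 for pseudocounts of 0.1, 0.5 and 1 and for no filter, where the median of all genes was 0.31, 0.27, 0.23 and 0.08, against 0.01 in edgeR. The cause was not tested.

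The number of genes called, 0 in edgeR, was 19 with DESeq2, 4 with no filter, 1 with limma at each pseudocount, and 1 to 4 with a library left out. With the replicate block it was 1 and the log2 fold change of Plaur 1.84, against 0.65 without the block. Same-numbered libraries deviated from their group means with r = -0.167, and a crossed pairing, added after seeing the data, called 2. With WT 2 apart from the other libraries, these values cannot decide whether same-numbered libraries were paired. The titles give libraries a number only. With a library left out the median log2 fold change ranged from -0.0051 to 0.78 for receptors and regulators, -0.37 to 0.32 for substrates and proteases, -0.17 to 0.75 for other serpins, -0.0942 to 1.01 for other annexins and -1.85 to 0.18 for the list of other S100 genes with S100pbp. For receptors and regulators it was 0.48 with limma at a pseudocount of 0.1. Log2 differences of ratios crossed 0 with a library left out for Plau to Plaur (-2.18 to 1.45) and Plau to Plat (-0.02 to 1.33). Of the 21 nearest genes 9 were shared when the minimum was 1 RPKM. Counts limit Plg and the markers at or near 0 reads, and 2 libraries a group limit all comparisons.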
